A study of Mus musculus with 4 samples.

Results

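The Myc, Max and Mxd network was examined in haematopoietic stem cells (HSCs) of *BRE–GFP* mice as the rows of 9 genes, *Myc*, *Mycn*, *Max*, *Mxd1*, *Mxi1*, *Mxd3*, *Mxd4*, *Mnt* and *Mga*, chosen by name from the 23906 gene symbols listed. All 9 were listed and each reached 1 FPKM (a read density scaled by transcript length and library size) or more in at least 1 library. RNA came from LSK-SLAM cells, which are lineage-negative, Sca1+ and cKit+ cells with a CD150+CD48- profile. There were 4 libraries, 1 each of GFP+ and GFP- cells from embryonic day 14 fetal liver (FL) and 1 each from adult bone marrow (BM), whose age in these libraries is not given in the sources used here. All 4 carry the *BRE–GFP* transgene, in which a BMP responsive element drives GFP, so that GFP+ cells are those activated by BMP when sorted. The line was kept on a C57BL/6 background by mating heterozygous males to wild-type females, and how many animals entered a library is not given. GFP is not among the listed symbols, so the GFP label of a library could not be checked against its reporter. It is uncertain whether the study's own displays and the deposited labels order the samples alike, which the files cannot settle for GFP. Every GFP direction given here follows the deposited labels and would turn if those of the fractions were exchanged. The lineage stain included CD11b for BM only. With 1 library per condition no difference between conditions has a replicate check, and FPKM files carry no read counts per gene, so that no sampling error was computed for a value. FL and BM also differ in age, and tissue and age cannot be told apart.

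Myc and N-Myc, encoded by *Myc* and *Mycn*, are transcription factors that act only after pairing with Max. The pairs bind the E-box CACGTG and recruit coactivators to genes of ribosome production, metabolism and the cell cycle. The Mxd proteins (Mxd1, Mxi1, Mxd3 and Mxd4) and Mnt compete for Max and for the same sites, where they recruit Sin3 and histone deacetylases and repress transcription, and Mxd genes are typically switched on as cells stop dividing and mature. Mga is a very large Max partner that belongs to a Polycomb repressor complex. In mouse bone marrow, loss of *Myc* leaves stem cells that accumulate in their niche and mature poorly, and *Myc* and *Mycn* overlap in function there.

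Promoter windows from 250 bases before to 50 bases after the RefSeq start were found for 8 of the 9 genes (*Myc* had none) on build GRCm38.p6. The E-box CACGTG, which reads the same on both strands, was present in the windows of *Max*, *Mxd4* and *Mnt*, or 3 genes. Over all genes with a window, 8.09% held it. The palindrome GGCGCC, a GC-rich element known from BMP-responsive promoters, was in a window of *Mycn*, *Max* and *Mxi1*, against 13.4% of all genes. The windows are shown 5′ to 3′ for the gene with the widest FPKM ratio between the FL fractions (*Max*) and those with the widest between the BM fractions (*Mycn* and *Mxd4*), with CACGTG and GGCGCC in capitals. They lie on the minus strand at chr12:12941787-12942086 (*Mycn*), chr12:76962199-76962498 (*Max*) and chr5:34187661-34187960 (*Mxd4*).
*Mycn*: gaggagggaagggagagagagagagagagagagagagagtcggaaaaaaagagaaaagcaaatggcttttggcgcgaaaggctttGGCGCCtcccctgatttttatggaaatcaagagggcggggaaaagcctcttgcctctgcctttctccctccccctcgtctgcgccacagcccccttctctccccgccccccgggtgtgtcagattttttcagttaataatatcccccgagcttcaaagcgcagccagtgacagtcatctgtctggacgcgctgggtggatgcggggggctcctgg
*Max*: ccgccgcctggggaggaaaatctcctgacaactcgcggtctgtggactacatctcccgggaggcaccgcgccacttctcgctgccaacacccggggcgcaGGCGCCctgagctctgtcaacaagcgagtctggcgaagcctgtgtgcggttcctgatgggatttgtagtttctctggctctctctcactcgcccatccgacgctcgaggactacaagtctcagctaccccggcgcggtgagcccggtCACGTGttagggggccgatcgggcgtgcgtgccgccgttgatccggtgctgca
*Mxd4*: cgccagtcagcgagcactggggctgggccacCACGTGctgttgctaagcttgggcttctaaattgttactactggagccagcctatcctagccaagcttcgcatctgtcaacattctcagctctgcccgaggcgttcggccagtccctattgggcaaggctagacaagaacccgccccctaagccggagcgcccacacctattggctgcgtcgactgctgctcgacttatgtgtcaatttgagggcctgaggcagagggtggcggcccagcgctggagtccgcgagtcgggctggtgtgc
Counted from the start site, the E-box began at position −3 in *Max*, −219 in *Mxd4* and −123 in *Mnt*. GGCGCC began at −165 in *Mycn* and at −150 in *Max*. These are matches of letters, and binding was not measured.

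The labelled tissues were checked first, with lists of marker genes. All 8 genes of a fetal programme (*Lin28b*, *Hmga2*, *Igf2bp1*, *Igf2bp2*, *Igf2bp3*, *Igf2*, *H19* and *Arid3a*) were more than 2-fold lower in BM than in FL in both fractions, with sums of 539.7 (GFP+) and 181.9 (GFP-) FPKM in FL and 9.18 (GFP+) and 7.31 (GFP-) in BM. Among stem-cell genes, *Kit* had 102.3 (FL GFP+), 150.3 (FL GFP-), 22.2 (BM GFP+) and 76.6 (BM GFP-), while *Procr* was listed at 0 in BM GFP+ cells and at 60.8 to 113.5 in the other libraries. In contrast *Ly6a*, which encodes the sorting marker Sca1, had 19.7 (FL GFP+), 46.3 (FL GFP-), 286.2 (BM GFP+) and 145.5 (BM GFP-), and *Thy1* was also highest in BM GFP+ cells, at 4.39 against 0.111 to 0.960. BM GFP+ cells had the highest value of 8 of 9 granulocyte, 6 of 7 erythroid, 8 of 8 macrophage, 8 of 8 B cell and 8 of 8 T and NK cell genes. Of 6 megakaryocyte genes, 2 were highest in these cells. The summed FPKM of granulocyte genes was 587.4 (FL GFP+), 310.5 (FL GFP-), 62271 (BM GFP+) and 17455 (BM GFP-). None of the granulocyte, erythroid, B cell or T and NK cell genes was at 0 in either BM library. Hepatocyte genes summed to 360.6 (FL GFP+), 28.8 (FL GFP-), 13.3 (BM GFP+) and 6.87 (BM GFP-), with *Alb* at 139.5 and 9.49 in the FL. The BM GFP+ library stands apart, and each tissue result is given in the GFP- libraries as well. In such bulk libraries fewer cells of a type and less RNA per cell cannot be told apart.

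**Figure D1:**
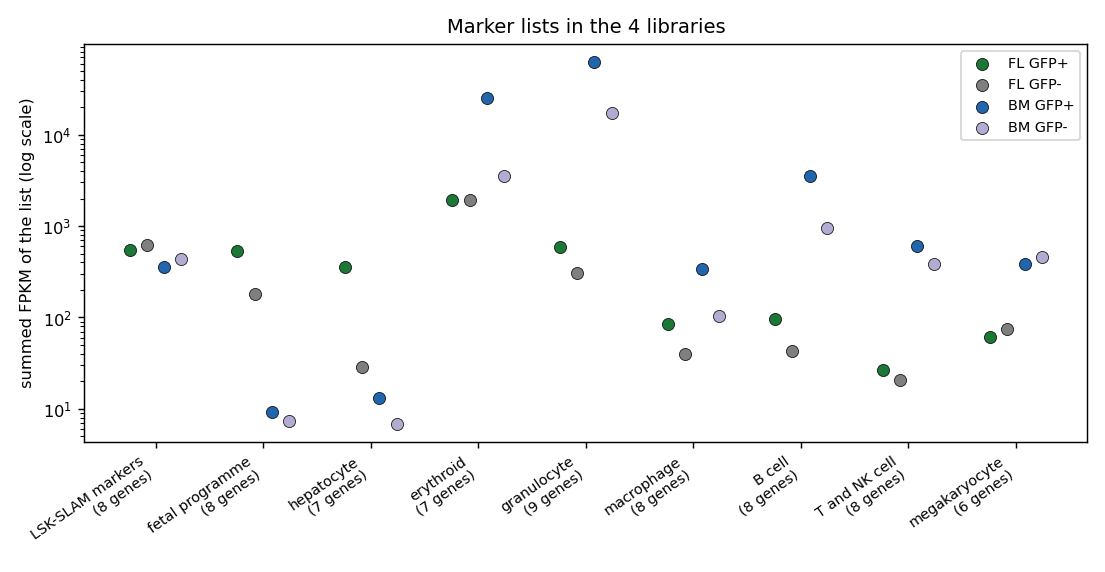
Summed FPKM (log axis) of 9 marker lists in the 4 libraries, 1 point per library. The 8 fetal genes sum to 539.7 and 181.9 in the FL libraries and to under 10 in those of the BM, and the granulocyte, erythroid, macrophage, B cell and T and NK cell points are highest in BM GFP+ cells.

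As deposited, *Myc* was higher and *Mycn* lower in each BM library than in either FL library. *Myc* (chromosome 15 of NCBI37/mm9, 61816946 to 61821929, plus strand) had an FPKM of 170.9 (FL GFP+), 96.7 (FL GFP-), 256.4 (BM GFP+) and 233.5 (BM GFP-), or percentiles 93.6 to 97.1 of the genes detected in a library. *Mycn* (chromosome 12, 12942902 to 12948720, minus strand) had 291.7 (FL GFP+), 227.6 (FL GFP-), 16.4 (BM GFP+) and 69.4 (BM GFP-). *Mycn* thus had a 17.7-fold range, whereas *Myc* varied 2.65-fold over the 4 libraries. The share of all genes whose FL and BM values lie apart in this way was not computed. FPKM are scaled by transcript length, and on that basis genes are set side by side within a library. Whether other differences between genes affect their FPKM was not checked. *Mycn* made up 63.1% (GFP+) and 70.2% (GFP-) of the summed *Myc* and *Mycn* FPKM in FL, but 6.03% (GFP+) and 22.9% (GFP-) in BM. The sum itself was 462.6 (FL GFP+), 324.4 (FL GFP-), 272.9 (BM GFP+) and 302.9 (BM GFP-).

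**Figure D2:**
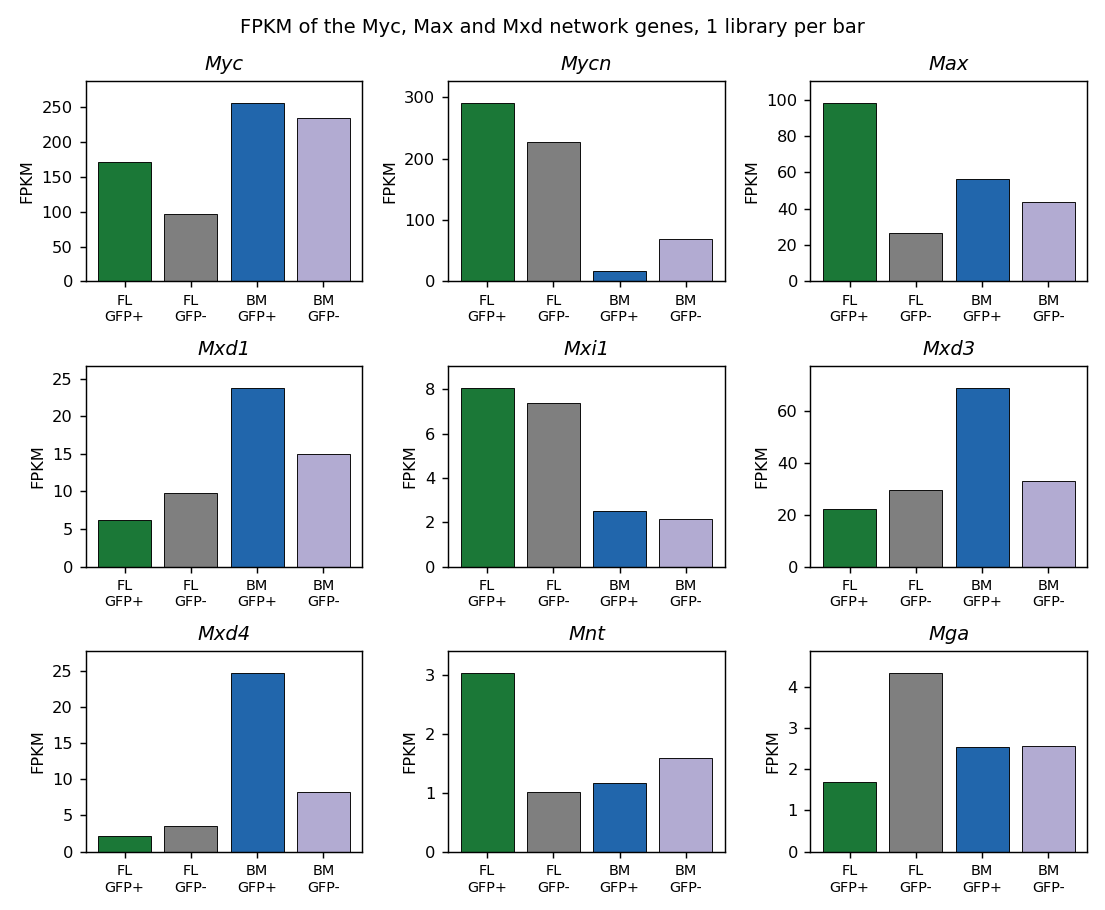
FPKM of the 9 network genes, 1 bar per library and a separate axis from 0 for each gene. *Mycn* (16.4 to 291.7) and *Mxi1* (2.17 to 8.08) are higher in both FL libraries than in both BM libraries, and *Mxd1*, *Mxd3* and *Mxd4* are highest in BM GFP+ cells.

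*Max* (chromosome 12, 78038256 to 78063235, minus strand), the shared partner of the network, was highest in FL GFP+ cells. Its FPKM was 98.4 (FL GFP+), 26.6 (FL GFP-), 56.6 (BM GFP+) and 43.8 (BM GFP-), a 3.70-fold difference between the FL fractions against 1.29-fold between those of the BM. The ratio of *Myc* to *Max* FPKM within a library was 1.74 (FL GFP+), 3.64 (FL GFP-), 4.53 (BM GFP+) and 5.34 (BM GFP-). Such ratios do not depend on how libraries are scaled against each other, but they describe transcripts and not protein pairs.

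Among the Mxd repressors, *Mxd3* had the highest FPKM in each library. *Mxd1* (chromosome 6, 86597038 to 86619153, minus strand), the family's founding member, had 6.24 (FL GFP+), 9.81 (FL GFP-), 23.8 (BM GFP+) and 15.002 (BM GFP-). *Mxd4* (chromosome 5, 34516536 to 34530369, minus strand) had 2.199, 3.60, 24.7 and 8.24 in the same order, an 11.2-fold range. Both genes were higher in each BM library than in either FL library and highest in BM GFP+ cells. *Mxd3* (chromosome 13, 55426529 to 55431119, minus strand), described as expressed in dividing cells, had 22.1 (FL GFP+), 29.7 (FL GFP-), 69.1 (BM GFP+) and 33.1 (BM GFP-). Its exons share 104 bases with *Prelid1* on the opposite strand, listed at 255.2 to 405.8, and without strand information reads from the shared part cannot be told apart. *Mxi1* (chromosome 19, 53384996 to 53450300, plus strand), which acts on Myc targets as Mxd1 does, had the opposite profile, with 8.08 (FL GFP+), 7.40 (FL GFP-), 2.50 (BM GFP+) and 2.17 (BM GFP-). Its exons share 194 bases with *Gm10197* on the opposite strand, a gene not listed here. *Mxi1* thus contributed 20.9% (GFP+) and 14.6% (GFP-) of the summed Mxd family FPKM in FL and 2.08% (GFP+) and 3.71% (GFP-) in BM, and *Mxd4* 5.69%, 7.11%, 20.6% and 14.1% in the 4 libraries. The share of *Mxd3* was 56.5% to 58.8%.

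*Mnt* and *Mga* had the lowest mean FPKM of the network. *Mnt* (chromosome 11, 74644422 to 74659227, plus strand), a repressor found in dividing as well as resting cells, had an FPKM of 3.05 (FL GFP+), 1.009 (FL GFP-), 1.18 (BM GFP+) and 1.602 (BM GFP-). *Mga* (chromosome 2, 119722964 to 119795317, plus strand) had 1.68, 4.34, 2.53 and 2.57. In order of mean FPKM over the 4 libraries the genes ran *Myc* (189.4), *Mycn* (151.3), *Max* (56.3), *Mxd3* (38.5), *Mxd1* (13.7), *Mxd4* (9.68), *Mxi1* (5.04), *Mga* (2.78) and *Mnt* (1.71). The ranges of each pair of neighbours in this order overlapped across the libraries, and no replicate spread exists by which neighbours could be separated. *Mycn* was above *Myc* in both FL libraries and below it in both BM libraries.

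Within each library the activators outweighed the repressors by different amounts. The summed FPKM of the 4 Mxd family genes was 38.7 (FL GFP+), 50.5 (FL GFP-), 120.1 (BM GFP+) and 58.5 (BM GFP-). The ratio of *Myc* plus *Mycn* to the sum of the 6 genes that encode Mxd proteins, Mnt and Mga was 10.7 (FL GFP+), 5.80 (FL GFP-), 2.204 (BM GFP+) and 4.84 (BM GFP-). It was highest in FL GFP+ and lowest in BM GFP+ cells, and intermediate in the GFP- libraries of both tissues. For *Myc* alone the ratio to these 6 genes was 3.94, 1.73, 2.07 and 3.73, an order in which FL GFP+ and BM GFP- cells had the higher values, so that the order differed once *Mycn* was left out. The Mxd family sum relative to *Max* was 0.393 (FL GFP+), 1.90 (FL GFP-), 2.12 (BM GFP+) and 1.34 (BM GFP-). In BM GFP+ cells, where Mxd family transcripts were most abundant, sums of granulocyte, erythroid, macrophage, B cell and T and NK cell markers were also highest. Megakaryocyte genes summed to 389.5 in BM GFP+ and to 463.5 in BM GFP- cells. The part of mature cells in these ratios was not tested.

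**Figure D3:**
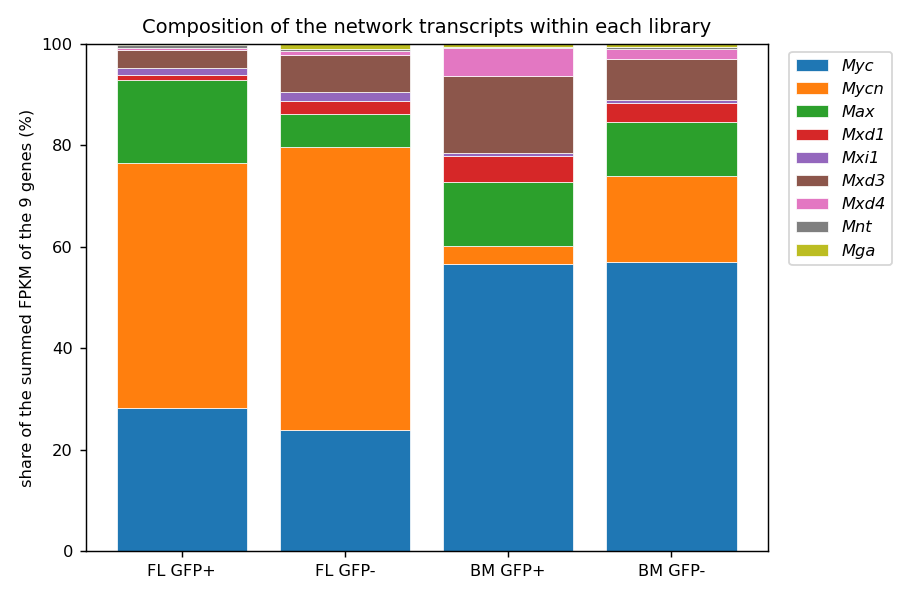
Share of each of the 9 genes in their summed FPKM (%), 1 stacked bar per library. *Mycn* takes 48.3% and 55.9% in the FL libraries and 3.63% and 16.9% in BM GFP+ and GFP- cells, where *Myc* takes 56.6% and 57.1%.

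The comparison of BMP-activated with non-activated cells used an FPKM ratio of more than 2 as its rule, the ratio that the study requires in both tissues at once and that was applied here to each tissue alone. Differences are given on the log2(FPKM + 1) scale, which understates those of low genes. Fewer genes were detected in the GFP+ library of each tissue, at 12372 against 15556 in the FL and 13489 against 17345 in the BM. The part of this in the genes lower or undetected in GFP+ cells was not tested. In the FL, 3 of the 9 genes passed the rule, against 44.6% of the 13609 genes that reached 1 FPKM in any library (16.6% higher and 28.0% lower). *Max* was higher in GFP+ cells by 1.85 and *Mnt* by 1.01, and *Mga* was lower by 2.58-fold (log2 difference −0.99). *Myc* was 1.77-fold and *Mycn* 1.28-fold higher in the GFP+ library, both short of the rule. The FL GFP+ library also held more hepatocyte RNA, with 5 of 7 marker genes past 2-fold higher and 1 lower. Of 8 macrophage genes 5 were past 2-fold higher in it and 3 lower. The part of such cells in these differences was not tested. With 10 FPKM required in at least 1 library, 6 members were left, and *Max* was the 1 of these past the rule in the FL, against 32.8% of genes.

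In the BM, again 3 of 9 genes passed, against 42.6% of all genes (19.7% higher and 22.9% lower). *Mxd4* was higher in GFP+ cells by 1.48 and *Mxd3* by 1.04 on the log2 scale, and *Mycn* was 4.22-fold lower (log2 difference −2.01). *Mxd3* was just inside the rule at 2.09-fold and lay outside it, at an unchanged direction, when libraries were rescaled to equal FPKM totals or upper quartiles. *Mxd1* was 1.59-fold higher in GFP+ cells and did not pass. *Myc* differed by 1.10-fold, *Max* by 1.29-fold and *Mxi1* by 1.15-fold, all higher in GFP+ cells as deposited and lower after rescaling to equal FPKM totals (log2 differences −0.32, −0.084 and −0.17). The lower *Mycn* went with lower *Kit*, *Mecom*, *Hlf*, *Slamf1* and *Procr*, and of the 8 LSK-SLAM genes 6 were past 2-fold lower, 1 (*Thy1*) was higher and *Ly6a* was higher short of 2-fold. The higher *Mxd3* and *Mxd4* went with 5 of 9 granulocyte and 6 of 8 B cell genes past 2-fold higher. The part of cell composition in these differences was not tested.

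None of the 9 genes (0) passed the rule in the same direction in both tissues, against 12.2% of all genes (3.26% higher in both and 8.98% lower in both). The GFP difference of *Mxd1*, *Mxd3* and *Mxd4* was negative in the FL (−0.58, −0.41 and −0.52) and positive in the BM (0.63, 1.04 and 1.48), and that of *Mycn* and *Mnt* was positive in the FL and negative in the BM. These contrasts between tissues rest on single libraries and were not tested. A linear model over the 4 libraries that included tissue, estimated for 11707 genes in limma, gave no member with an adjusted P under 0.05 for GFP (0 of 9, against 0.111% of all genes), and 1 member, *Max*, at an unadjusted P under 0.05, as did 6.25% of genes. *Max* was higher in GFP+ cells by 1.11 ± 0.48 (log2, standard error; limma, adjusted P = 0.79, or 0.14 to 1.0 over the alternatives), and was higher in both tissues as deposited. Only 1 residual degree of freedom per gene stands behind this test, and its standard error leans on the variance of all genes.

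**Figure D4:**
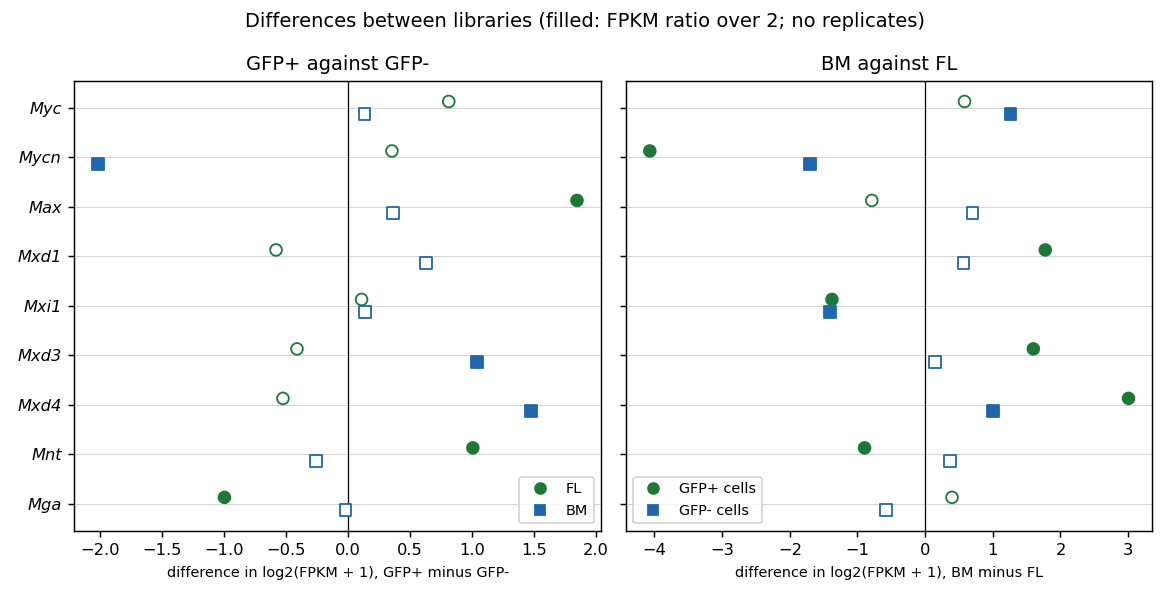
Differences in log2(FPKM + 1) of the 9 genes between GFP+ and GFP- cells in FL and BM (left) and between BM and FL in GFP+ and GFP- cells (right), each between 2 single libraries, with filled symbols for an FPKM ratio over 2. No gene has filled symbols on the same side in both tissues at left, and *Mycn*, *Mxi1* and *Mxd4* do so in both fractions at right.

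Between the tissues the comparison was made within each fraction. In GFP+ cells 6 of 9 genes passed the rule between BM and FL, against 56.2% of all genes (32.1% higher and 24.1% lower), with *Mxd4* (11.2-fold), *Mxd1* (3.81-fold) and *Mxd3* (3.12-fold) higher in BM and *Mycn* (17.7-fold), *Mxi1* (3.24-fold) and *Mnt* (2.59-fold) lower. In GFP- cells, which do not involve the BM GFP+ library, 4 of 9 passed, against 39.2% of all genes (20.0% higher and 19.2% lower). *Myc* (2.41-fold) and *Mxd4* (2.29-fold) were higher in BM and *Mycn* (3.28-fold) and *Mxi1* (3.41-fold) lower. Rescaling to equal FPKM totals took *Myc* and *Mxd4* out of this set and brought *Mga* in, giving 0 genes higher and 3 lower in place of 2 and 2. *Mxd3* was 1.11-fold higher in BM GFP- than in FL GFP- cells, and lower after either rescaling (log2 differences −0.27 for totals and −0.014 for upper quartiles). *Myc* was 1.5-fold and *Mga* 1.51-fold higher in BM GFP+ cells as deposited, with log2 differences of −0.044 and −0.025 after rescaling to totals.

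The genes past the rule in the same direction in both fractions were *Mycn* and *Mxi1*, lower in BM, and *Mxd4*, higher in BM, or 3 of 9 against 20.0% of all genes (12.2% higher in both and 7.86% lower in both). In the limma fit with GFP fraction as a block, *Mycn* was the 1 member with an adjusted P under 0.05 for tissue, against 2.46% of all genes, and *Myc* and *Mycn* were the 2 at an unadjusted P under 0.05, against 17.2%. *Mycn* was lower in BM by a log2 difference of −2.88 ± 0.53 (standard error, limma with Benjamini-Hochberg adjustment, adjusted P = 0.028, lower in both fractions). Over the alternatives its adjusted P in limma ran from 0.016 to 0.28, and without BM GFP+ cells the log2 difference was −1.88 with an adjusted P of 0.25. The lone BM library of that fit is assumed to vary as those of the FL do. For *Myc* the log2 difference was 0.92 ± 0.33 (limma, adjusted P = 0.20), for *Mxd4* 2.01 ± 0.94 (adjusted P = 0.32) and for *Mxi1* −1.39 ± 0.90 (adjusted P = 0.47). These standard errors lean on the variance of all genes and do not measure the spread between these libraries. In GFP+ and GFP- cells the differences were −4.07 and −1.70 for *Mycn*, but −1.38 and −1.41 for *Mxi1*, which has the larger standard error. The libraries with low *Mycn* were those with low sums of the fetal programme and high sums of granulocyte and B cell genes, whose part was not tested.

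The other genes of the pathway were read from lists. Of all genes, 16.6% were higher and 28.0% lower past 2-fold in FL GFP+ cells, and 19.7% and 22.9% in BM GFP+ cells. Of the relatives of the network, *Mycl* was listed at 0 in 3 libraries and at 0.186 in BM GFP- cells, and *Mlxipl* was at most 0.927. *Mlx*, the partner of the glucose-sensing Mondo proteins, had 27.8 (FL GFP+), 27.2 (FL GFP-), 60.96 (BM GFP+) and 39.7 (BM GFP-). *Mlxip*, which encodes MondoA, had 36.3, 27.6, 53.7 and 14.8. Both were highest as deposited in BM GFP+ cells. That library has the largest FPKM total, 1000850 against 541453 to 729311 in the others. Of 11 Myc coactivators, 0 were higher and 1 lower in GFP+ cells of the FL. *Ruvbl1*, an ATPase of chromatin-remodelling complexes and the most abundant of them, had 350.9 (FL GFP+), 190.9 (FL GFP-), 118.5 (BM GFP+) and 210.6 (BM GFP-), *Ruvbl2* 156.5 to 270.1 and *Actl6a* 75.5 to 167.6. Of 10 Sin3 and NCoR corepressor genes, 1 was higher in FL GFP+ cells and 2 were lower in BM GFP+ cells. *Sin3b*, a scaffold to which Mxd proteins bind, had 137.0 (FL GFP+), 127.9 (FL GFP-), 227.9 (BM GFP+) and 154.7 (BM GFP-). As deposited it was highest in BM GFP+ cells. *Rbbp7* (183.0 to 308.4) and *Hdac1* (100.5 to 204.8) were lowest there.

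Of 8 genes for partners of Mga in its Polycomb complex, *Pcgf6* and *Ring1* were higher and *E2f6* lower in GFP+ cells of the FL (16.6% and 28.0% of all genes). In those of the BM *Pcgf6* alone was past 2-fold, lower (22.9% of all genes). *Tfdp1* ranged from 68.5 to 115.0, *Cbx3* from 61.2 to 68.0 and *Rnf2* from 20.8 to 68.5. Of 9 genes for turnover of Myc protein, 1 (*Usp36*) was lower in FL GFP+ cells, against 28.0% of all genes. In BM GFP+ cells 1 was higher (*Usp28*, a deubiquitinase known to stabilize Myc), against 19.7% of all genes. *Skp2*, a ubiquitin ligase subunit, was lower in BM in both fractions, at 19.3 and 27.5 (FL) and 5.59 and 9.94 (BM).

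Targets were read from lists in the same way, beside the same shares of all genes in the GFP comparisons. Of 26 genes known to be activated by Myc, 2 were past 2-fold higher and 2 lower in FL GFP+ cells, with a median log2 difference of 0.26 against 0 over all genes, and 1 was higher and 4 lower in BM GFP+ cells, with −0.50 against 0.026. Between BM and FL, 0 were higher and 9 lower in GFP+ cells (median −0.64 against 0.029, with 24.1% of all genes lower), and 1 was higher and 3 lower in GFP- cells (0.11 against 0.034). *Npm1*, a nucleolar chaperone, had 1249.1 (FL GFP+), 1121.8 (FL GFP-), 872.6 (BM GFP+) and 1129.7 (BM GFP-). *Ldha* (742.7 to 1213.5) and *Cdk4* (464.3 to 969.6) were likewise highest in FL GFP+ and lowest in BM GFP+ cells. The ratio of activators to repressors had its extremes in the same libraries, while *Myc* itself was highest in BM GFP+ cells as deposited. After rescaling to equal FPKM totals *Myc* was lower there than in BM GFP- cells (log2 difference −0.32). *Npm1*, *Ldha* and *Cdk4* do not stand for the list. Of its 26 genes, 13 peaked in FL GFP+ cells, 9 peaked in BM GFP- cells and each other library held the peak of 2. Any link between the ratio and target levels was not tested. *Gart*, of purine synthesis, and *Tert*, of telomerase, were the 2 of 26 targets past 2-fold in the same direction in both tissues. Both were lower in GFP+ cells, as were 8.98% of all genes. *Gart* had 48.6 and 99.4 (FL) and 39.8 and 102.7 (BM). *Tert* had 0.609 and 6.14 in the FL and was listed at 0 and at 1.61 in the BM. After rescaling to equal FPKM totals 0 of the 26 genes were higher and 9 lower in BM GFP+ than in BM GFP- cells, with 31.0% of all genes lower. Between BM and FL in GFP+ cells 0 were then higher and 18 lower, with 35.4% of all genes lower.

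Of the genes known to be repressed by Myc, 9 passed the filter. In FL GFP+ cells 2 were higher and 4 lower (16.6% and 28.0% of all genes). In BM GFP+ cells 3 were higher and 2 lower (19.7% and 22.9%). Between BM and FL in GFP+ cells 6 were higher and 2 lower (32.1% and 24.1%). Their median log2 difference was 4.35, against 0.029 over all genes. In GFP- cells 5 were higher and 1 lower (20.0% and 19.2%), with a median of 1.595 against 0.034. The median of 4.35 rests on low values, since 5 of the 10 listed genes were under 1 FPKM in FL GFP+ cells. In FL GFP- cells 1 was. *Cdkn1b*, the gene at that median, had 0.122 (FL GFP+) and 5.13 (FL GFP-). *Btg2*, an antiproliferative gene, had 2.04 (FL GFP+), 3.14 (FL GFP-), 69.3 (BM GFP+) and 54.9 (BM GFP-). *Btg1*, of the same family, had 3.74 and 1.71 (FL) and 101.0 and 23.4 (BM), and *Ndrg1* was listed at 0 and 3.42 in the FL and at 45.1 and 81.2 in the BM. *Cdkn1a*, the cell cycle inhibitor p21, had 0.230, 2.06, 3.26 and 8.24. It was past 2-fold lower in GFP+ cells of both tissues (8.98% of all genes), and *Btg1* past 2-fold higher (3.26%). *Cdkn2b* was at or below 0.381. These genes are also expressed in mature blood cells, which the lineage stain and the CD48 gate of the sort are meant to remove, and the part of such cells was not tested. Of 12 proliferation genes, *Mki67* in BM GFP+ cells was past 2-fold higher than in BM GFP- cells and none other passed in any of the 4 comparisons.

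**Figure D5:**
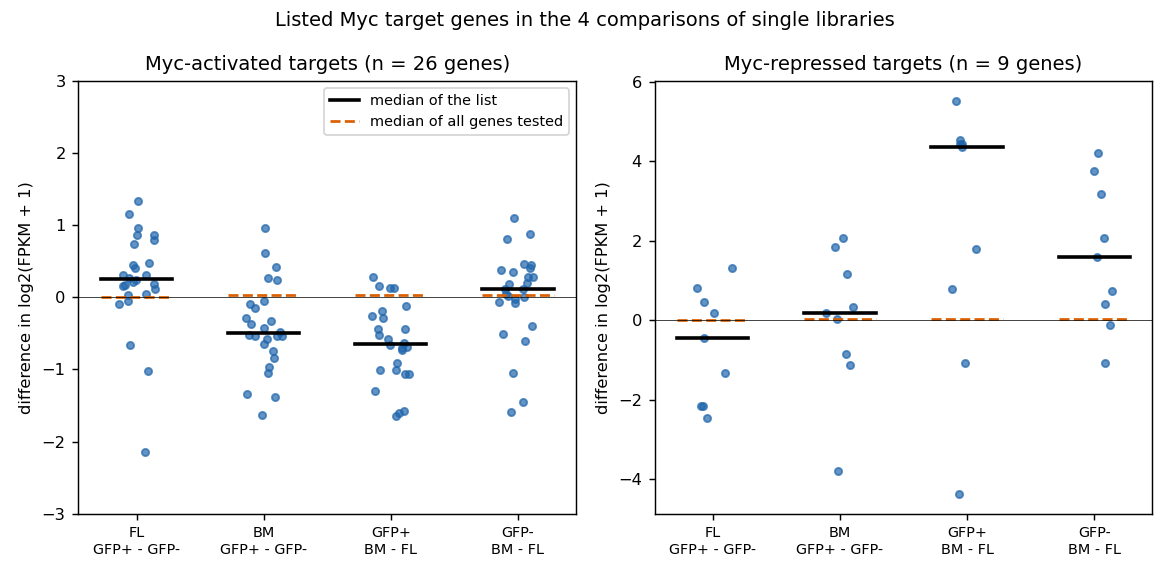
Differences in log2(FPKM + 1) of 26 Myc-activated and 9 Myc-repressed genes, 1 point per gene, in the 4 comparisons, with the list's median (black) and that of all genes tested (dashed). The activated genes have medians of 0.26, −0.50, −0.64 and 0.11, and the repressed genes are mostly higher in BM.

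Genes with profiles close to those of the network were sought among the 8311 genes that reached 1 FPKM in all 4 libraries, by the Euclidean distance between centred log2(FPKM + 1) values. Nearest to *Myc* were *H2afy* (distance 0.081), *Cox5a* (0.097) and *A430005L14Rik* (0.11). *H2afy*, which encodes a macroH2A histone, had 159.7 (FL GFP+), 86.1 (FL GFP-), 222.1 (BM GFP+) and 206.1 (BM GFP-). Nearest to *Mxd3*, the most abundant Mxd gene, were *Polr2k* (0.054), *Pet100* (0.075) and *Spryd3* (0.10). With only 4 libraries many genes come close to any profile by number alone, and no more than likeness is meant.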

How the data were processed

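RNA from sorted cells was prepared with the SMARTer protocol. The deposited values are FPKM per gene symbol, which the authors computed with TopHat and Cufflinks 2.2.1 and normalized across samples with Cuffnorm (geometric library size), after correction for fragment bias and multiple mapping. The methods name NCBI37/mm9 and the labels' processing notes mm10. The files hold no coordinates, so positions are from GENCODE vM1 (NCBI37/mm9) and promoters from RefSeq (GRCm38.p6), without conversion. Strand was not stated for the counting, and the files hold no read counts per gene. The study states the mapped reads per library, which were not used here.

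The 13609 genes that reached 1 FPKM in any sample were compared by FPKM ratio over 2, with differences of log2(FPKM + 1). limma 3.58.1 in R 4.3.3 (trend, Benjamini-Hochberg adjustment, two-sided) was fitted to genes reaching 1 FPKM in 2 samples or more. Other steps used Python 3.11.15 with pandas 2.3.3. Code was tested on simulated data. Members and lists were chosen with earlier results of these data known. All 9 members were named, and from each pathway list the 3 genes of highest mean FPKM and up to 3 past 2-fold in the same direction in both tissues, with all relatives; other genes named from the lists were picked after their values were seen. Some genes that this rule or the lists would name are not reported here. Alternatives were pseudocount 0.1, thresholds of 1.5-fold and 4-fold, filters, rescaling, limma without trend or block and, added after the data had been seen, without each library.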

Additional observations from a re-analysis of the deposited data

Results flagged for a closer look

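Several members had GFP differences of opposite sign in the FL and the BM, with at least 1 of them past the 2-fold rule, and these contrasts were not tested because each condition is 1 library. As log2(FPKM + 1) in GFP+ minus GFP- cells, *Mycn* was at 0.36 (FL) and −2.01 (BM), *Mxd3* −0.41 and 1.04, *Mxd4* −0.52 and 1.48, and *Mnt* 1.01 and −0.26. For *Mnt* the difference between BM and FL also changed sign between the fractions, from −0.89 in GFP+ to 0.37 in GFP- cells, at FPKM of 1.009 to 3.05. The BM side of each GFP contrast rests on the library in which *Procr* was listed at 0. Granulocyte, erythroid, macrophage, B cell and T and NK cell sums were highest there, while the megakaryocyte sum was highest in BM GFP- cells.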

How the results depend on the processing

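The 2-fold counts depended most on the threshold. At 1.5-fold, 6 members passed in the FL (60.0% of all genes), 4 in the BM (59.7%), 9 between the tissues in GFP+ cells (69.7%) and 8 in GFP- cells (58.3%). At 4-fold, 0 passed in the FL (28.3%), 1 in the BM (*Mycn*, 23.1%), 2 between the tissues in GFP+ cells (*Mycn* and *Mxd4*, 37.1%) and 0 in GFP- cells (19.8%). With 10 FPKM required, 1 of 6 members passed in the FL. A log2(FPKM + 1) difference past 1 in size left out *Mga* in the FL and *Mnt* between the tissues in GFP+ cells. Rescaling to equal FPKM totals moved the median log2 difference of all genes by −0.14, −0.30, −0.26 and −0.34 in the FL, BM, GFP+ and GFP- comparisons, and rescaling to upper quartiles by −0.11, −0.038, −0.029 and −0.11. With totals, the share of higher genes among all genes past 2-fold went from 46.2% to 28.3% in the BM, from 57.2% to 41.1% between the tissues in GFP+ cells and from 51.1% to 33.3% in GFP- cells. Of 72 member differences recomputed under either rescaling, 9 changed sign, none of them past 2-fold as deposited (0). *Mycn* lost its limma call for tissue, leaving 0 members, without the trend, without the block and with a pseudocount of 0.1, and leaving out 1 library at a time, also without the block, gave 0 to 1 members (adjusted P in limma of 0.15 without FL GFP+, 0.075 without FL GFP-, 0.25 without BM GFP+ and 0.016 without BM GFP- cells). The causes were not tested. Genes called by limma over the whole table went from 288 for tissue to 0 without the trend, 176 without the block, 80 with a pseudocount of 0.1, 189 without the filter, 16 without BM GFP+ cells and 148 without BM GFP- cells, and from 13 for GFP to 0 without the trend, 4 without the block, 1 with a pseudocount of 0.1, 31 without FL GFP+, 3 without FL GFP-, 435 without BM GFP+ and 6 without BM GFP- cells. No member was called for GFP under any of these settings (0), with 0 to 2 at an unadjusted P under 0.05. No paired analysis was possible because each group has 1 library and the labels carry no replicate numbers. The block in limma is the other factor of the design (tissue or GFP fraction), not a replicate.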

Other observations

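*Stub1*, a ubiquitin ligase gene on the list of Myc protein turnover, had an FPKM of 7200.9 (FL GFP+), 9094.6 (FL GFP-), 8696.5 (BM GFP+) and 6561.6 (BM GFP-). It ranked 3rd, 1st, 10th and 4th among all symbols in these libraries, while the other 8 genes of the list were at most 27.5. The value was not resolved further, since the files hold neither reads nor isoforms.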
